A study of Mus musculus with 9 samples.

Results

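Cytokines, chemokines and their receptors were examined in cultured mouse myoblasts. The genes were chosen by symbol alone: interleukins and their receptors, CXC chemokines and receptors, CC chemokines, TNF superfamily ligands and receptors whose symbol ends in a number or a single letter, the colony stimulating factors Csf1 to Csf3, and Lif, Lifr, Osm, Osmr and Il6st. This rule took 153 of the 47729 genes counted, with 150 distinct symbols, and no measured value was used in it. They comprised 81 ligands, 71 receptors and the antagonist Il1rn.

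The data were RNA-seq read counts from 9 libraries of myoblasts of FVB/N mice, with skeletal muscle as the labelled source. The SRC3 group holds 3 libraries labelled SRCs Cycle 3, the FRC1 group 3 libraries labelled FRCs Cycle 1, and the PAR group 3 libraries labelled Parental. SRC3 and FRC1 are reserve cell populations that went through a pair of passages in growth conditions after they were isolated, so their RNA is that of proliferating cultures and not of freshly isolated cells. No genotype or drug separates the groups in the labels, and all 3 groups share strain and tissue. Population and cycle number change together, with FRCs only at cycle 1 and SRCs only at cycle 3. Differences between SRC3 and FRC1 that go with the population and those that go with the cycle therefore cannot be told apart. The labels do not say whether replicates came from separate cultures, so the p-values below measure the spread between these libraries, which may be technical. In bulk RNA, fewer cells that express a gene and less of its RNA per cell cannot be told apart.

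Cytokines are small secreted or membrane-bound proteins that signal through receptors on the same or neighbouring cells. Interleukins of the gp130 family act through a ligand-specific chain, such as Il6ra, Lifr, Osmr or Il11ra1, paired with the shared chain Il6st and pass the signal to STAT3. TNF superfamily ligands and interleukin-1 family ligands act largely through NF-kB, and chemokines guide cell migration through receptors coupled to G proteins. In skeletal muscle, myoblasts both make and respond to such factors. LIF is known to stimulate myoblast proliferation, the chemokine CXCL12 and its receptor CXCR4 to guide migration of muscle progenitors, IL-4 receptor signalling to promote myoblast fusion, and TWEAK, through its receptor Tnfrsf12a, to act on regeneration and wasting.

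Gene counts per library were 13012996 to 14336279, and the cytokine and receptor genes took 0.189 to 0.237% of them. Myoblast markers were abundant in every library, with a summed level of 2090 to 2280 CPM (gene counts scaled to the same total in every library, with TMM factors) in SRC3, 2930 to 2960 in FRC1 and 2980 to 3070 in PAR. Of the 8 markers, Myod1 averaged 539.6 CPM in SRC3, 770.8 CPM in FRC1 and 776.5 CPM in PAR, while Myf5 had 1 read in all. The macrophage and leukocyte markers summed to 7.25 to 7.7 CPM in SRC3, 6.16 to 6.91 CPM in FRC1 and 6.11 to 6.44 CPM in PAR. Nearly all of that sum came from Cd14, with 157, 150 and 128 reads in SRC3, FRC1 and PAR, and Cd68, with 135, 117 and 130 reads, neither of which passed in any comparison. Adgre1, Lyz2 and Cd3e had no read in any library and Ptprc had 2 reads. Smooth muscle and pericyte markers, mostly Acta2, differed between the groups and summed to 4.26 to 14.9 CPM in SRC3, 174 to 233 CPM in FRC1 and 63 to 73.7 CPM in PAR. Fibroblast markers summed to 8.51 to 11.7 CPM in SRC3, 6.49 to 7.2 CPM in FRC1 and 8.68 to 8.96 CPM in PAR, and endothelial markers to at most 0.56 CPM in any library. The part of these marker differences in the results below was not tested.

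Most of the family was silent or close to it. Of the 153 genes, 58 had no read in any library, 53 had reads but too few to test, and 42 passed the filter on low counts, which asks for about 0.734 CPM in 3 libraries. Among ligands 39 of 81 had no read and 14 were tested, while among receptors 19 of 71 had no read and 28 were tested. None of the 6 IL-17 ligands and none of the 18 ligands grouped here as other interleukins passed the filter. Of the tested genes, 34 reached the filter level in all libraries of all 3 groups. Ccl28 reached it throughout only in PAR, Il1b only in FRC1, and Il20rb and Tnfrsf25 only in SRC3.

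Compared per transcript length, as CPM per kilobase of exon (RPKM), 2 genes stood well above the rest. Csf1, the growth factor of the macrophage lineage, averaged 123 RPKM in SRC3, 128 in FRC1 and 185 in PAR. Tnfrsf12a, the TWEAK receptor, averaged 184 RPKM in SRC3, 163 in FRC1 and 122 in PAR, so that it lay above Csf1 in both reserve populations and below it in PAR. Csf1 alone held 30.5 to 42.9% of all reads of the 153 genes. Next came Tnfrsf1a, the widely expressed TNF receptor, at 35, 35.8 and 38.9 RPKM in SRC3, FRC1 and PAR. Il34, the other ligand of the CSF1 receptor, stood at 22.5, 20.8 and 20.1 RPKM, while the receptor gene itself, Csf1r, which lies outside the symbol rule, had 3, 2 and 1 reads in SRC3, FRC1 and PAR.

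**Figure D1:**
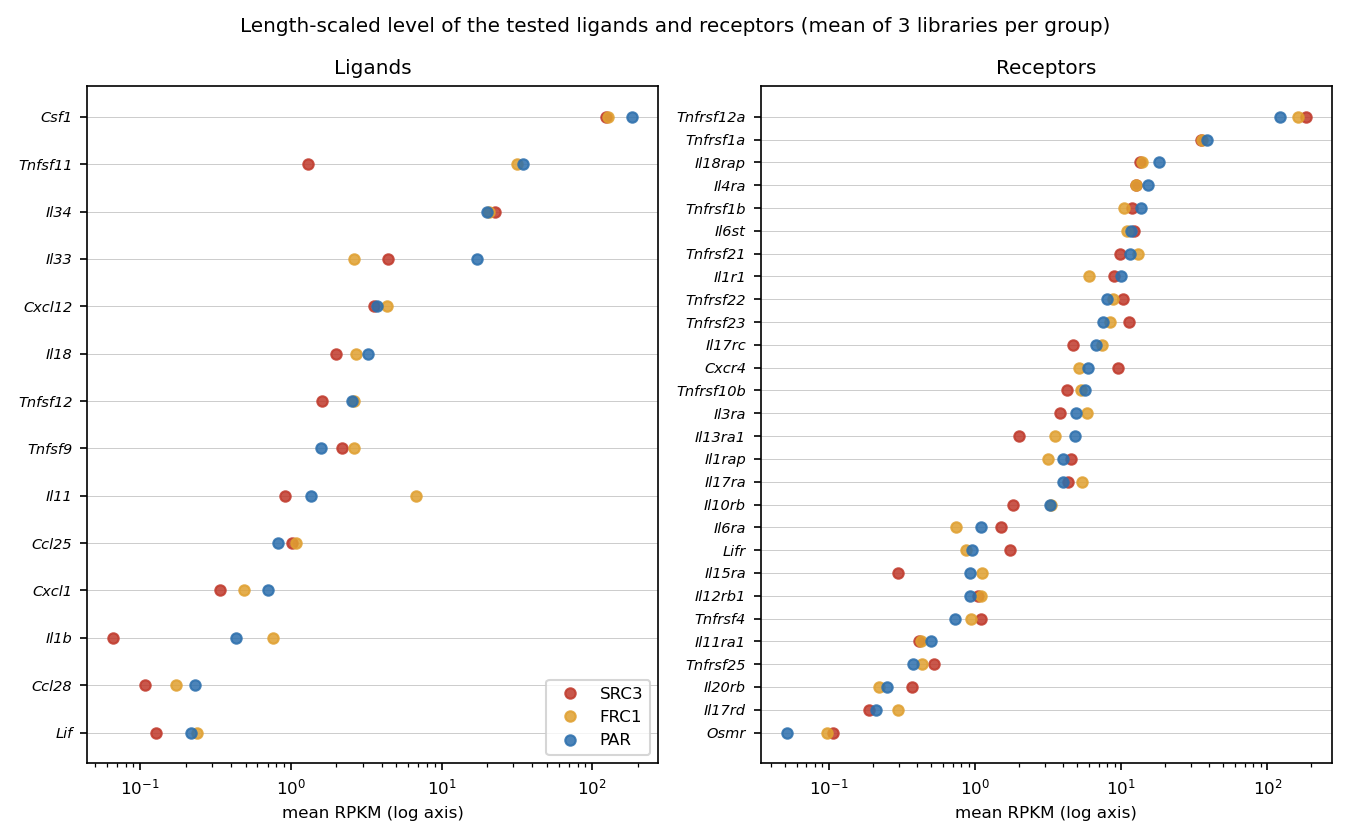
Mean RPKM (log axis, 3 libraries per group) of the 14 tested ligands and 28 tested receptors in SRC3, FRC1 and PAR. Csf1 and Tnfrsf12a are the 2 highest genes in every group, and Tnfsf11 lies at 1.3 RPKM in SRC3 against 31.7 in FRC1 and 34.6 in PAR.

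In SRC3 against PAR, 26 of the 42 tested genes passed edgeR's quasi-likelihood test at an adjusted p of 0.05, 7 of them higher and 19 lower in SRC3. That is 61.9% of these genes, where 37.9% of all 12540 tested genes passed, 17.8% as higher and 20.2% as lower. Of 14 tested ligands, 8 were lower, 6 did not pass and none was higher, whereas of 28 receptors 7 were higher and 11 lower. The ligand count depends on the filter on low counts and on the test. Il24, a ligand that the filter left out, passed as higher in SRC3 without it (edgeR adjusted p = 8.5e-08) and with DESeq2 (0.00019). Ccl28 entered only through PAR and Il1b only through FRC1, in each case the group where it was highest. Cxcl1 reached the filter level throughout in FRC1 and PAR but not in SRC3. With DESeq2 the calls of Ccl28, Cxcl1, Il18 and Tnfsf12 were lost (adjusted p 0.14, 0.1, 0.074 and 0.073). The median log2 fold change was -0.68 over the ligands and -0.043 over the receptors, beside 0.0057 over all genes. Changes of at least 2-fold were called for 8 of the 42 genes, beside 6.71% of all genes.

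In FRC1 against PAR fewer genes passed, 14 of 42 (33.3%), beside 28.3% of all genes, a share near the background. Of these, 5 were higher and 9 lower, beside 13.6% and 14.7% of all genes. Il11 was called at least 2-fold higher and Il33 at least 2-fold lower. Whatever their sign, log2 fold changes had a median size of 0.28 over the cytokine and receptor genes and 0.16 over all genes.

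In SRC3 against FRC1, 23 of 42 genes passed (54.8%), beside 33.5% of all genes, with 10 higher and 13 lower. Among all genes 15.5% were higher and 18% lower. No ligand passed as higher, 5 passed as lower and 9 did not pass, while 10 receptors were higher and 8 lower. Here too Il24 passed as higher without the filter (edgeR adjusted p = 1.8e-06) and with DESeq2 (0.0025), and Il1b, counted as lower, had entered only through FRC1, where it was highest. The 3 comparisons share libraries pairwise, so their counts are not independent of each other. Groups did not overlap for 31 genes in SRC3 against PAR (49.1% of all genes), 24 in FRC1 against PAR (44.2% of all genes) and 25 in SRC3 against FRC1 (42.8% of all genes).

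**Figure D2:**
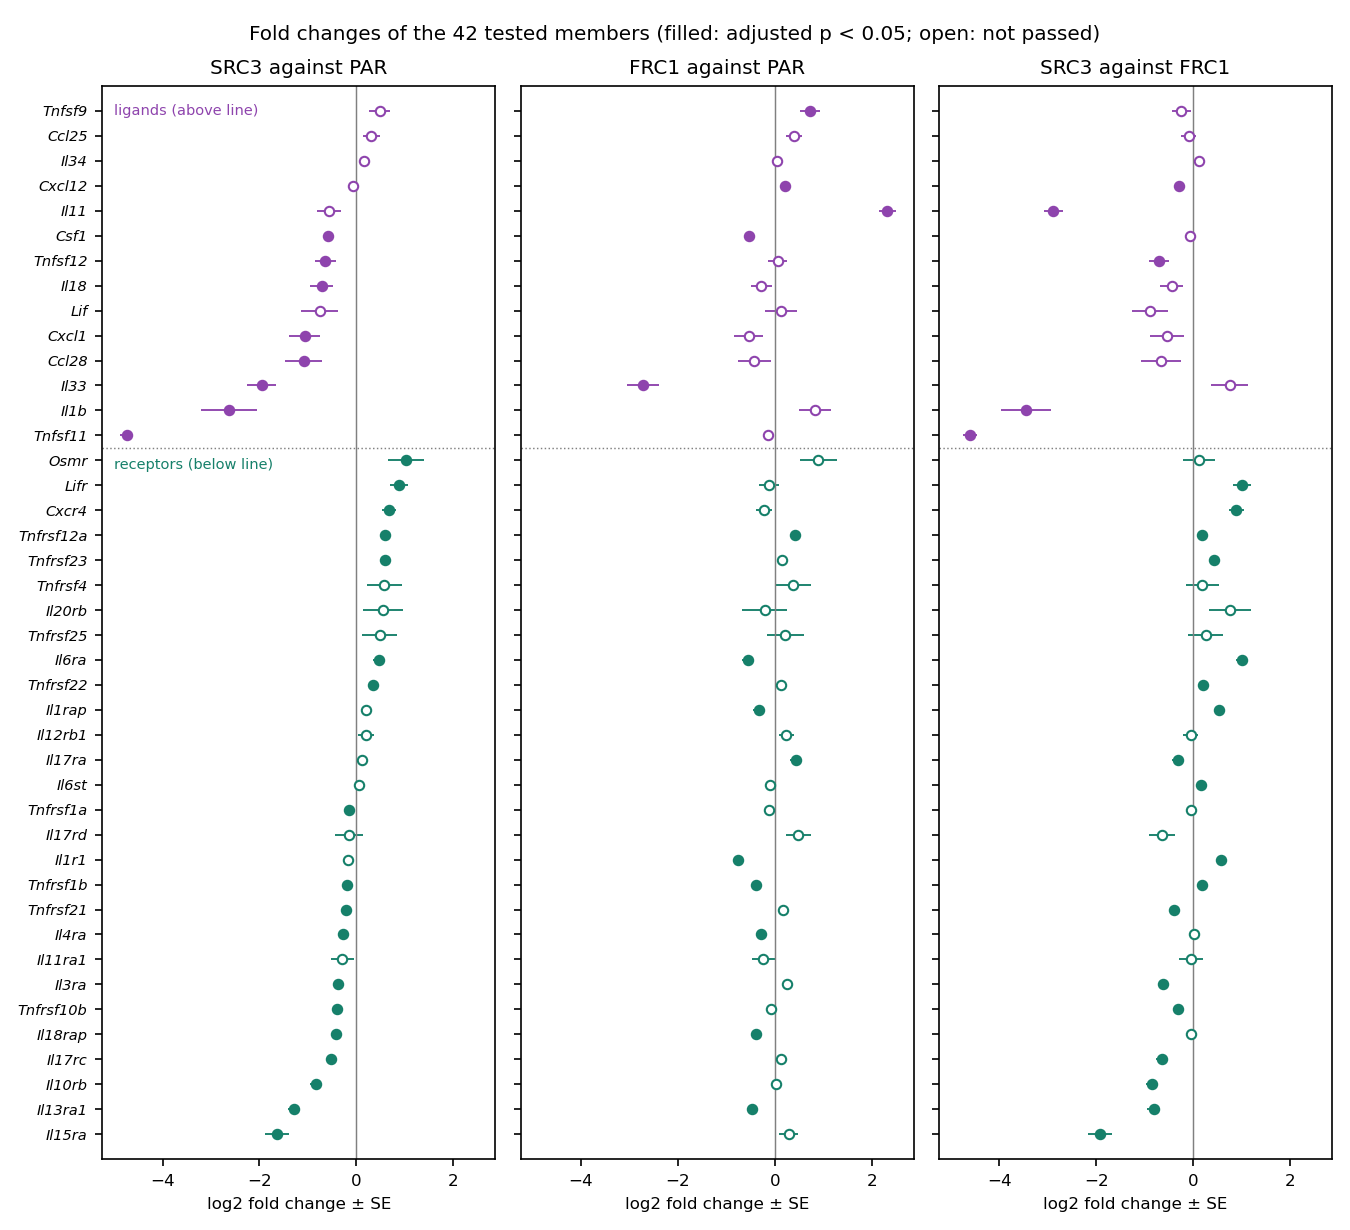
Log2 fold change ± SE of the 42 tested genes in each comparison from the edgeR fit, with ligands above the dotted line and receptors below it. Filled points passed at an adjusted p of 0.05. In SRC3 against PAR all 8 filled ligands lie to the left of 0, with Tnfsf11 at -4.74 and Il1b at -2.62.

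Promoter sequences were read for the tested genes from RefSeq (GRCm38.p6), as the 250 bases before each annotated start. Of the 42 tested genes 34 had a window. Shown are the windows of Tnfsf11, Il11 and Il1b, which were each at least 2-fold lower in SRC3 than in FRC1, hold a match to a searched motif and overlap no exon. Il15ra, the other gene with such a fall, has windows that overlap exons. Il11 has another window, at a different annotated start, which overlaps an exon, holds no match and is not shown. Capitals mark the match, on either strand, and each sequence runs 5′ to 3′ toward the gene.
Tnfsf11 (chr14:78308044-78308293, minus strand): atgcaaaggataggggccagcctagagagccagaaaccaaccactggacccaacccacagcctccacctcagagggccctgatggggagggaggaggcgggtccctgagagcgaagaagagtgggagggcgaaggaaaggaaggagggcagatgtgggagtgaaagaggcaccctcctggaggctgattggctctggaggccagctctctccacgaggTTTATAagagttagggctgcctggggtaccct
Il11 (chr7:4778142-4778391, minus strand): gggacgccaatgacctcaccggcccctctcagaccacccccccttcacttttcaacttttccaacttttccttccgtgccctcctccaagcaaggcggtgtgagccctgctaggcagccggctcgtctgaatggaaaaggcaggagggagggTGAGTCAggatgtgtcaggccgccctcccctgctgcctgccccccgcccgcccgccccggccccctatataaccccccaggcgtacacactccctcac
Il1b (chr2:129371140-129371389, minus strand): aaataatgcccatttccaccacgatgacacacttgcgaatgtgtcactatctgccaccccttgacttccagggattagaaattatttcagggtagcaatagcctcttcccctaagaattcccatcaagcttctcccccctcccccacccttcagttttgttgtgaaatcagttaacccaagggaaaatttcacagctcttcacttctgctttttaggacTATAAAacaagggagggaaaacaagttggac
The capitals are the TATA box letters TATAAA in Tnfsf11, where they lie on the opposite strand, and in Il1b, and the AP-1 letters TGANTCA in Il11. Over all 32851 windows of the table, read singly, TATAAA was found in 12.4% and TGANTCA in 6.75%. Both strands were searched for the exact letters only, so similar stretches, such as tatataa in the Il11 window, are not marked.

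The match nearest the start was 32 bases before it in Tnfsf11 and 31 in Il1b, and the AP-1 match in Il11 was 98 bases before it. Counted per gene, with a match in any of its windows, 7 of the 34 genes with a window held TATAAA (20.6%, beside 14.3% of all 27025 genes of the table), namely Ccl25, Cxcr4, Il18, Il1b, Il33, Tnfrsf23 and Tnfsf11. The AP-1 letters were held by 3 (8.82%, beside 7.82% of all genes), namely Il11, Il15ra and Lif. An NF-kB consensus, GGGA and TTTCC with any base between them, was found, on either strand, in Csf1 and Cxcl1 (5.88% of the 34 genes, beside 0.414% of all genes and 0.356% of single windows). The STAT letters TTCNNNGAA were found in Tnfrsf1a, Tnfrsf1b and Tnfrsf25 (8.82%, beside 8.13% of all genes and 7.02% of single windows). These are matches of letters and not measured binding sites.

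Tnfsf11, known as RANKL, is the TNF superfamily ligand that drives osteoclast formation. Its change was the largest of the 42 genes in SRC3 against PAR and in SRC3 against FRC1. The gene lies at chr14:78277445-78308043 (GRCm38) and had 2.64, 3.55 and 2.51 CPM in SRC3 libraries, 74.5, 66.4 and 71.4 CPM in FRC1 libraries, and 80.6, 65.3 and 86.5 CPM in PAR libraries. All 3 SRC3 libraries lay far below the other 6, and FRC1 and PAR overlapped. The level in SRC3 was 26.7-fold lower than in PAR (log2 fold change -4.74, SE 0.14, adjusted p = 2.2e-13 by edgeR) and 24.4-fold lower than in FRC1 (-4.61, SE 0.14, adjusted p = 3.4e-13). In FRC1 against PAR the log2 fold change was -0.13 (SE 0.09, adjusted p = 0.28), and it passed without PAR replicate 2 (-0.24, adjusted p = 0.026). Its receptor Tnfrsf11a had 5, 0 and 1 reads in SRC3, FRC1 and PAR, and its decoy receptor Tnfrsf11b had 6, 5 and 5 reads, so neither could be tested.

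The 2 other tested TNF ligands changed less. Tnfsf12, which encodes TWEAK, averaged 2.45 ± 0.66 CPM in SRC3, 4.01 ± 0.32 CPM in FRC1 and 3.84 ± 0.50 CPM in PAR (SD over 3 libraries, as for every ± on a level below). It fell in SRC3 by 0.64 against PAR (edgeR adjusted p = 0.021) and by 0.70 against FRC1 (adjusted p = 0.014) on the log2 scale. The call against FRC1 was lost without SRC3 replicate 2 (adjusted p = 0.068), and that against PAR was lost without SRC3 replicate 2 or 3 or PAR replicate 1 or 2 (adjusted p 0.1, 0.052, 0.087 and 0.067) and with DESeq2 (0.073). Its exons overlap those of Tnfsfm13 on the same strand over 731 bases, so its count is uncertain. Tnfsf9, the ligand of the T cell costimulator Tnfrsf9, rose in FRC1, with 3.26, 3.15 and 3.71 CPM in FRC1 against 1.61, 2.14 and 2.35 CPM in PAR, and the groups did not overlap. The fold was 1.66 (log2 fold change 0.73, SE 0.21, adjusted p = 0.013 by edgeR), which did not pass without FRC1 replicate 3 (adjusted p = 0.065), without PAR replicate 1 (adjusted p = 0.081) or with DESeq2 (adjusted p = 0.063). Tnfrsf9 itself had 17, 15 and 13 reads in SRC3, FRC1 and PAR. The exons of Tnfsf9 overlap those of Gm11110 on the opposite strand over 192 bases.

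Il11, a gp130 family cytokine, was highest in FRC1. Its levels at chr7:4772373-4782859 were 2.05, 1.54 and 2.13 CPM in SRC3, 11.4, 16.1 and 14.97 CPM in FRC1, and 3.22, 2.14 and 3.06 CPM in PAR. Every FRC1 library lay above every other library for this gene, and the SRC3 libraries lay just below the PAR libraries. The rise was 5.01-fold in FRC1 against PAR (log2 fold change 2.32, SE 0.17, adjusted p = 2.0e-08 by edgeR). SRC3 was 7.39-fold lower than FRC1 (-2.88, SE 0.19, adjusted p = 2.9e-10), and in SRC3 against PAR the log2 fold change was -0.56 (SE 0.25, adjusted p = 0.079). The last comparison passed without PAR replicate 2 (-0.71, adjusted p = 0.04). Its specific receptor chain Il11ra1 averaged 1.84 ± 0.49, 1.91 ± 0.23 and 2.24 ± 0.17 CPM in SRC3, FRC1 and PAR and passed in no comparison. Il11ra1 has near-identical copies, the Il11ra2 genes, which had no read, and reads that align to several genes were set aside, so its level is uncertain.

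The other gp130 ligands within the symbol rule were low. Lif, at 0.59, 0.39 and 0.68 CPM in SRC3, 1.21, 1.12 and 0.78 CPM in FRC1 and 0.84, 0.84 and 1.14 CPM in PAR, passed in no comparison (adjusted p of 0.12 in SRC3 against PAR and 0.07 in SRC3 against FRC1). Every SRC3 library was below every other library for Lif. Il6, a cytokine released by contracting muscle, had 2 reads in all, both in PAR replicate 1.

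Of the interleukin-1 family ligands, 3 of 3 tested were lower in SRC3 than in PAR, where 20.2% of all genes were, though the call of Il18 was lost under several alternatives given below. Il1b was among the 3 only because it reached the filter in FRC1, where it was highest. In a fit of SRC3 and PAR alone it was not tested. Il33, an alarmin stored in the nucleus and released on damage, had 13.1, 11.96 and 13.1 CPM in SRC3, 13.4, 4.13 and 5.27 CPM in FRC1, and 50.2, 48.1 and 49.8 CPM in PAR (chr19:29925114-29960718). PAR libraries were tight and high, SRC3 libraries tight and low, and FRC1 replicate 1 sat with SRC3 while the other 2 FRC1 libraries were lower still. The gene fell 3.88-fold in SRC3 (log2 fold change -1.96, SE 0.30, adjusted p = 0.0022 by edgeR) and 6.57-fold in FRC1 (-2.72, SE 0.33, adjusted p = 0.0011) against PAR. Without FRC1 replicate 1 the fall in FRC1 was 10.5-fold (adjusted p = 3.7e-14). SRC3 against FRC1 gave 0.76 (SE 0.38, adjusted p = 0.18) with all libraries, and 1.44, a 2.71-fold higher level in SRC3, without FRC1 replicate 1 (adjusted p = 3.7e-08). The receptor chain for this ligand, Il1rl1, had 3, 5 and 2 reads in SRC3, FRC1 and PAR.

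Il1b, the pro-inflammatory cytokine cut to its active form by caspase-1 (Casp1), had 0.15, 0.15 and 0.08 CPM in SRC3, 1.06, 1.47 and 1.85 CPM in FRC1 and 0.91, 1.07 and 0.50 CPM in PAR. These levels rest on 5 reads in SRC3, 61 in FRC1 and 34 in PAR over 3 libraries each. SRC3 did not overlap with either group. Counted over the group, SRC3 held 6.53-fold fewer reads per library size than PAR (95% counting interval 2.54 to 21.4) and 11.7-fold fewer than FRC1 (4.74 to 37.3). The edgeR fit gave a log2 fold change of -2.62 (SE 0.58, adjusted p = 0.0012) against PAR and -3.45 (SE 0.51, adjusted p = 2.2e-05) against FRC1, and 0.83 (SE 0.34, adjusted p = 0.072) for FRC1 against PAR. The last comparison passed without FRC1 replicate 1 (1.01, adjusted p = 0.04). Casp1, which lies outside the symbol rule, had no read in any library. Il18, the third ligand, was 1.64-fold lower in SRC3 than in PAR (adjusted p = 0.021), a call lost without SRC3 replicate 1 (adjusted p = 0.11), without PAR replicate 1 (adjusted p = 0.15) and with DESeq2 (adjusted p = 0.074).

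Csf1 was the most abundant ligand and fell moderately in both reserve populations. It had 628, 756 and 570 CPM in SRC3, 723, 648.5 and 660 CPM in FRC1 and 945.5, 964 and 1025 CPM in PAR. Every PAR library lay above every SRC3 and FRC1 library, and those 2 groups overlapped. The log2 fold change was -0.59 in SRC3 (SE 0.09, edgeR adjusted p = 0.00044) and -0.53 in FRC1 (SE 0.09, adjusted p = 0.0015) against PAR. SRC3 against FRC1 gave -0.06 (SE 0.09, adjusted p = 0.69) and passed without SRC3 replicate 2 (-0.17, adjusted p = 0.022). Il34 averaged 44.0 ± 4.9, 40.7 ± 1.8 and 39.4 ± 3.2 CPM in SRC3, FRC1 and PAR and passed in no comparison with all libraries, though in SRC3 against PAR it did without SRC3 replicate 3 (0.24, adjusted p = 0.02).

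Few chemokines were expressed: of 20 CC chemokine rows 13 had no read and 2 were tested, and of 13 CXC ligands 5 had no read and 2 were tested. Cxcl12, the ligand of Cxcr4, had 29.4, 29.4 and 29.0 CPM in SRC3, 32.8, 36.6 and 37.3 CPM in FRC1 and 28.8, 31.6 and 31.3 CPM in PAR. FRC1 was slightly above both other groups, 1.22-fold above SRC3 (adjusted p = 0.0053 in SRC3 against FRC1) and 1.16-fold above PAR (adjusted p = 0.029). The call against PAR was lost without FRC1 replicate 2 or 3 (adjusted p 0.1 and 0.14) and without PAR replicate 1, 2 or 3 (adjusted p 0.15, 0.053 and 0.056), and with DESeq2 (0.089).

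Cxcl1, a neutrophil attractant, and Ccl28, a mucosal chemokine, were each about 1 CPM in PAR and lower in SRC3. Cxcl1 had 0.51, 0.62 and 0.76 CPM in SRC3 against 1.47, 1.30 and 1.21 CPM in PAR, a 2.1-fold fall (log2 fold change -1.07, SE 0.33, adjusted p = 0.014 by edgeR). It was lost without SRC3 replicate 1 (adjusted p = 0.065), without PAR replicate 1 (adjusted p = 0.06) and with DESeq2 (adjusted p = 0.1). Ccl28 averaged 0.53 ± 0.19 CPM in SRC3 and 1.13 ± 0.32 CPM in PAR (-1.09, SE 0.38, adjusted p = 0.03), and its call was lost without SRC3 replicate 2 (adjusted p = 0.13), without PAR replicate 1 or 3 (adjusted p 0.16 and 0.059) and with DESeq2 (adjusted p = 0.14). Ccl2, a monocyte attractant, had 4, 3 and 15 reads in SRC3, FRC1 and PAR. Its count was 3.6-fold lower in SRC3 than in PAR (95% counting interval 1.15 to 14.9) and 5.01-fold lower in FRC1 than in PAR (1.42 to 27), intervals that cover counting error only. Without the filter edgeR gave adjusted p = 0.14 and 0.081 for these comparisons, and neither passed.

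**Figure D3:**
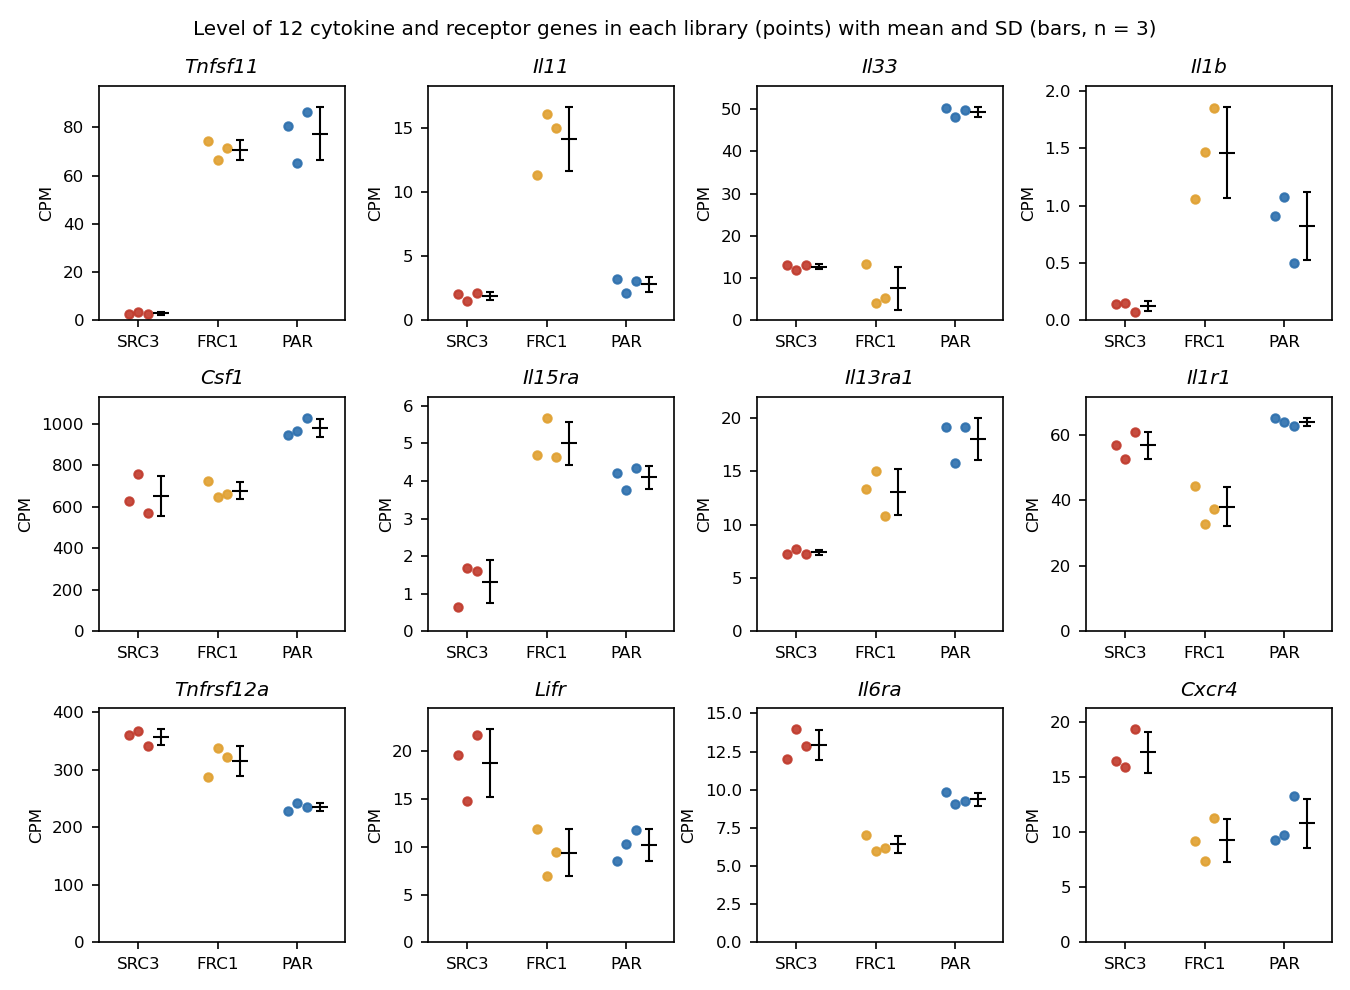
CPM of 12 cytokine and receptor genes in each library (points), with the mean and SD of 3 libraries per group (bars), for SRC3, FRC1 and PAR. Tnfsf11 is near the axis in SRC3 (mean 2.9 CPM) and high in the other groups, Il11 is high in FRC1 (mean 14.1 CPM), and Il33 is high in PAR (mean 49.3 CPM).

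Of 5 tested gp130 family receptor chains within the symbol rule, 3 were higher in SRC3 than in PAR, where 17.8% of all genes were, 3 were higher in SRC3 than in FRC1, where 15.5% of all genes were, and none was lower. Cntfr, a receptor chain of the same family outside the rule, went the other way and was 5.37-fold lower in SRC3 than in PAR (adjusted p = 4.1e-06) and 4.8-fold lower than in FRC1 (adjusted p = 1.4e-05). Among the chains counted as higher, Osmr against PAR and Il6st against FRC1 lost the call under alternatives given below. Osmr also reached the filter level throughout in SRC3 and FRC1 but not in PAR. Lifr, the LIF-binding chain, had 19.6, 14.8 and 21.7 CPM in SRC3, 11.8, 6.93 and 9.41 CPM in FRC1 and 8.47, 10.3 and 11.8 CPM in PAR. All SRC3 libraries lay above all others, and the other 2 groups overlapped. The rise in SRC3 was 1.84-fold against PAR (log2 fold change 0.88, SE 0.19, adjusted p = 0.0027 by edgeR) and 2-fold against FRC1 (1.00, SE 0.19, adjusted p = 0.0014).

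Il6ra, the ligand-binding chain for IL-6, separated all 3 groups. It had 12.03, 13.96 and 12.8 CPM in SRC3, 7.05, 6.02 and 6.2 CPM in FRC1 and 9.87, 9.04 and 9.24 CPM in PAR, with no overlap between any groups. It was higher in SRC3 than in PAR (log2 fold change 0.46, SE 0.11, adjusted p = 0.0029 by edgeR), lower in FRC1 than in PAR (-0.55, SE 0.13, adjusted p = 0.0026) and 2.02-fold higher in SRC3 than in FRC1 (1.01, SE 0.12, adjusted p = 1.5e-06). Its exons overlap those of Gm42809 on the opposite strand over 242 bases.

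Il6st, the shared chain, was abundant and nearly level at 136 ± 5.2 CPM in SRC3, 122.5 ± 5.2 CPM in FRC1 and 130 ± 1.5 CPM in PAR. It passed in SRC3 against FRC1 alone (log2 fold change 0.15, SE 0.05, adjusted p = 0.024 by edgeR), and not without SRC3 replicate 3 (adjusted p = 0.083) or FRC1 replicate 2 (adjusted p = 0.085). Osmr, the oncostatin M receptor chain, was far lower, at 1.28 ± 0.19 CPM in SRC3, 1.17 ± 0.33 CPM in FRC1 and 0.62 ± 0.30 CPM in PAR. Its 2.03-fold rise in SRC3 against PAR (1.02, SE 0.38, adjusted p = 0.038) was lost without SRC3 replicate 1 or 3 (adjusted p 0.12 and 0.069), without PAR replicate 2 or 3 (adjusted p 0.17 and 0.086) and with DESeq2 (adjusted p = 0.13). In FRC1 against PAR it passed without FRC1 replicate 1 (1.09, adjusted p = 0.047) and did not with all libraries (adjusted p = 0.083).

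Cxcr4 rose in SRC3 as well. It had 16.4, 15.9 and 19.3 CPM in SRC3, 9.17, 7.35 and 11.3 CPM in FRC1 and 9.31, 9.72 and 13.3 CPM in PAR. SRC3 libraries were the 3 highest, while FRC1 and PAR overlapped. The rise was 1.59-fold against PAR (log2 fold change 0.67, SE 0.15, adjusted p = 0.0019 by edgeR) and 1.86-fold against FRC1 (0.89, SE 0.15, adjusted p = 0.00022). Ackr3, the scavenging receptor for the same ligand and outside the symbol rule, averaged 114 ± 6.7, 116 ± 7.9 and 118 ± 3.3 CPM in SRC3, FRC1 and PAR and passed in no comparison.

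Of 9 tested TNF superfamily receptors, 3 were higher and 4 lower in SRC3 against PAR, where 17.8% and 20.2% of all genes were. Of the 4 lower, Tnfrsf1a, Tnfrsf1b and Tnfrsf21 lost the call under alternatives given below. Tnfrsf12a, the most abundant, had 360, 368 and 341 CPM in SRC3, 287, 337 and 321 CPM in FRC1 and 228, 241 and 235 CPM in PAR. Both reserve populations lay above PAR in every library. The log2 fold change was 0.60 in SRC3 (SE 0.05, edgeR adjusted p = 3.1e-08) and 0.43 in FRC1 (SE 0.05, adjusted p = 1.1e-05) against PAR. In SRC3 against FRC1 it was 0.18 (SE 0.05, adjusted p = 0.016), which did not pass without FRC1 replicate 1 (0.11, adjusted p = 0.1).

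Tnfrsf23 and Tnfrsf22, neighbouring paralogs on chromosome 7 that act as decoy receptors for TRAIL in mice, were also higher in SRC3. Tnfrsf23 averaged 44.9 ± 2.8 CPM in SRC3, 33.1 ± 1.7 CPM in FRC1 and 29.7 ± 2.0 CPM in PAR, higher in SRC3 by 0.60 against PAR (SE 0.07, edgeR adjusted p = 2.4e-06) and by 0.44 against FRC1 (SE 0.07, adjusted p = 9.5e-05) on the log2 scale. Its exons overlap those of E230032D23Rik on the opposite strand over 164 bases. Tnfrsf22 averaged 43.1 ± 4.8 CPM in SRC3, 37.2 ± 0.5 CPM in FRC1 and 33.8 ± 0.2 CPM in PAR, a rise of 0.35 against PAR (adjusted p = 0.00099). Its smaller rise against FRC1 (0.21, adjusted p = 0.033) was lost without SRC3 replicate 3 (adjusted p = 0.21), without FRC1 replicate 1, 2 or 3 (adjusted p 0.051, 0.065 and 0.065), in a fit of those 2 groups alone (0.053) and with DESeq2 (adjusted p = 0.072). Tnfrsf10b, the mouse TRAIL receptor that carries a death domain, moved the other way at 23.3 ± 1.3 CPM in SRC3, 29.1 ± 1.2 CPM in FRC1 and 30.7 ± 1.5 CPM in PAR. It fell by 0.40 against PAR (SE 0.08, adjusted p = 0.00038) and by 0.32 against FRC1 (SE 0.08, adjusted p = 0.0031).

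Tnfrsf21, a death domain receptor of the family, averaged 40.5 ± 2.7 CPM in SRC3, 53.5 ± 1.9 CPM in FRC1 and 47.2 ± 3.1 CPM in PAR, with no overlap between groups. SRC3 was 1.32-fold lower than FRC1 (log2 fold change -0.40, SE 0.07, adjusted p = 0.00012 by edgeR). Its fall in SRC3 against PAR (-0.22, adjusted p = 0.016) was lost without SRC3 replicate 3 (0.079) or PAR replicate 2 or 3 (0.088 and 0.063). In FRC1 against PAR the adjusted p was 0.051 with all libraries, 0.041 without SRC3 replicate 2 and 0.033 without SRC3 replicate 3.

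The receptors for TNF itself changed by small amounts. Tnfrsf1a averaged 90.7 ± 1.2 CPM in SRC3, 92.9 ± 3.4 CPM in FRC1 and 101 ± 4.4 CPM in PAR, 1.11-fold lower in SRC3 than in PAR (edgeR adjusted p = 0.031). That call was lost without SRC3 replicate 1, 2 or 3 (adjusted p 0.061, 0.071 and 0.064), without FRC1 replicate 3 (0.053), without PAR replicate 1 or 2 (0.069 and 0.17) and with DESeq2 (0.064). Tnfrsf1b averaged 45.6 ± 1.6 CPM in SRC3, 39.9 ± 2.1 CPM in FRC1 and 52.1 ± 0.8 CPM in PAR, with its firmest difference in FRC1 against PAR (log2 fold change -0.39, SE 0.06, adjusted p = 0.00014). Its smaller differences in SRC3 against PAR (-0.19, adjusted p = 0.02) and SRC3 against FRC1 (0.19, adjusted p = 0.025) did not pass with DESeq2 (adjusted p 0.06 and 0.064). The first was also lost without SRC3 replicate 3 (0.073) or PAR replicate 1 or 3 (0.062 and 0.072), and the second without SRC3 replicate 1 (0.07) or FRC1 replicate 2 (0.093). 

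Both chains of the IL-1 receptor had their lowest means in FRC1. Il1r1, the signalling receptor for IL-1, had 56.8, 52.5 and 60.9 CPM in SRC3, 44.3, 32.6 and 37.3 CPM in FRC1 and 65.0, 63.9 and 62.7 CPM in PAR. No groups overlapped. FRC1 was 1.68-fold lower than PAR (log2 fold change -0.75, SE 0.09, adjusted p = 6.9e-06 by edgeR) and SRC3 1.49-fold higher than FRC1 (0.58, SE 0.09, adjusted p = 5.2e-05). SRC3 against PAR gave -0.17 (SE 0.08, adjusted p = 0.12), which passed without the count filter (adjusted p = 0.046), in a fit of those 2 groups alone (0.045) and without FRC1 replicate 1 (just under 0.05).

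Il1rap, the accessory chain of the same receptor, averaged 51.8 ± 8.7 CPM in SRC3, 35.9 ± 3.3 CPM in FRC1 and 45.1 ± 2.5 CPM in PAR. It was 1.45-fold higher in SRC3 than in FRC1 (log2 fold change 0.53, SE 0.11, adjusted p = 0.0014 by edgeR). The fall in FRC1 against PAR (-0.33, adjusted p = 0.034) was lost without FRC1 replicate 2 or 3 (0.13 and 0.11) or PAR replicate 1 or 3 (0.098 and 0.11) and with library sizes alone (0.05 after rounding). In SRC3 against PAR the adjusted p was 0.15 with all libraries and 0.0011 without SRC3 replicate 2. The exons of Il1rap overlap those of Gm20319 on the opposite strand over 552 bases.

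Il18rap, the accessory chain of the IL-18 receptor, had 93.3, 87.1 and 93.7 CPM in SRC3, 97.7, 85.7 and 97.7 CPM in FRC1 and 121.5, 121 and 123 CPM in PAR. PAR lay above both other groups in every library. The fall was 1.33-fold in SRC3 (log2 fold change -0.41, SE 0.06, adjusted p = 8.8e-06 by edgeR) and 1.3-fold in FRC1 (-0.38, SE 0.06, adjusted p = 6.2e-05). Its ligand-binding partner Il18r1 had 1 read in all 9 libraries, in PAR replicate 3.

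Il4ra and Il13ra1, which together form the receptor that both IL-4 and IL-13 can use, were lower in both reserve populations than in PAR. Il13ra1 (chrX:36112110-36171259) had 7.26, 7.71 and 7.3 CPM in SRC3, 13.3, 15.05 and 10.8 CPM in FRC1 and 19.2, 15.8 and 19.1 CPM in PAR. The groups did not overlap and ran in that order from low to high. The fall was 2.43-fold in SRC3 against PAR (log2 fold change -1.28, SE 0.13, adjusted p = 1.3e-07 by edgeR) and 1.76-fold in SRC3 against FRC1 (-0.82, SE 0.13, adjusted p = 7.3e-05). In FRC1 against PAR it was 1.38-fold (-0.47, SE 0.12, adjusted p = 0.0056), a call lost without FRC1 replicate 3 (adjusted p just over 0.05).

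Il4ra moved less, at 76.2 ± 3.7 CPM in SRC3, 75.7 ± 6.3 CPM in FRC1 and 91.7 ± 1.5 CPM in PAR. It fell by 0.27 in SRC3 (SE 0.06, edgeR adjusted p = 0.0017) and by 0.28 in FRC1 (SE 0.06, adjusted p = 0.002) against PAR on the log2 scale. Its exons overlap those of Gm44876 on the opposite strand over 571 bases.

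Several further interleukin receptor chains were lower in SRC3. Il15ra, which presents IL-15 to neighbouring cells, had 0.66, 1.7 and 1.6 CPM in SRC3, 4.7, 5.67 and 4.63 CPM in FRC1 and 4.2, 3.75 and 4.33 CPM in PAR (chr2:11705290-11734317). SRC3 lay below all other libraries. Il15ra reached the filter level throughout in FRC1 and PAR, where it was higher, but not in SRC3. It was 3.12-fold lower in SRC3 than in PAR (log2 fold change -1.64, SE 0.25, adjusted p = 3.2e-05 by edgeR) and 3.8-fold lower than in FRC1 (-1.93, SE 0.24, adjusted p = 3.5e-06). Its ligand Il15, which skeletal muscle is known to secrete, had 1 read in all, in PAR replicate 1.

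Il10rb, a chain shared by the IL-10, IL-22 and lambda interferon receptors, averaged 6.91 ± 0.43 CPM in SRC3, 12.5 ± 0.9 CPM in FRC1 and 12.4 ± 0.6 CPM in PAR. It was 1.78-fold lower in SRC3 than in PAR (log2 fold change -0.84, SE 0.12, adjusted p = 9.1e-06 by edgeR) and 1.81-fold lower than in FRC1 (-0.85, SE 0.12, adjusted p = 7.8e-06). Its exons overlap those of Gm21970 on the same strand over 569 bases, so its count is uncertain. Il3ra, the specific chain of the IL-3 receptor, averaged 11.2 ± 0.9 CPM in SRC3, 17.3 ± 1.7 CPM in FRC1 and 14.6 ± 0.6 CPM in PAR and was 1.3-fold lower in SRC3 than in PAR (adjusted p = 0.0093) and 1.54-fold lower than in FRC1 (adjusted p = 0.00011).

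Il17rc, a chain of the IL-17 receptor, averaged 12.5 ± 1.7 CPM in SRC3, 19.6 ± 1.3 CPM in FRC1 and 17.9 ± 2.0 CPM in PAR. It was lower in SRC3 by a log2 fold change of -0.52 against PAR (SE 0.11, edgeR adjusted p = 0.0012) and -0.65 against FRC1 (SE 0.11, adjusted p = 0.00014). Its partner Il17ra averaged 37.3 ± 4.9 CPM in SRC3, 46.5 ± 7.4 CPM in FRC1 and 34.4 ± 2.1 CPM in PAR. The rise of Il17ra in FRC1 against PAR (0.44, adjusted p = 0.012) did not pass without FRC1 replicate 3 (0.054) or PAR replicate 3 (0.058). Its lower level in SRC3 than in FRC1 (-0.32, adjusted p = 0.043) was lost in a fit of those 2 groups alone (0.089), with the filter at 5 CPM (0.057), without SRC3 replicate 1 or 3 (0.17 and 0.15), without FRC1 replicate 2 or 3 (0.17 and 0.14) and without PAR replicate 1, 2 or 3 (0.068, 0.074 and 0.06).

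Among the 53 genes with reads that were too low to test, 39 had at most 10 reads over the 9 libraries. The 5 described next were picked after their counts were seen. Il24, an IL-10 family cytokine, had 10, 16 and 8 reads in SRC3, 0, 1 and 0 in FRC1 and none in PAR. Each SRC3 library exceeded every other library. Set against a floor of 3 reads over the group, its level in SRC3 was at least 11.8-fold higher than in PAR, and the ratio to FRC1 was 35.5 (95% counting interval 5.96 to 1440). In a fit without the count filter edgeR gave adjusted p = 8.5e-08 against PAR and 1.8e-06 against FRC1, and DESeq2 gave 0.00019 and 0.0025.

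Il27ra, the specific chain of the IL-27 receptor, which signals with Il6st, had 16, 14 and 7 reads in SRC3, 4, 4 and 1 in FRC1 and 4, 3 and 3 in PAR. SRC3 held 3.85-fold more than PAR (95% counting interval 1.88 to 8.69) and 4.29-fold more than FRC1 (2.03 to 10.1). Without the filter the adjusted p was 0.0035 and 0.0021 with edgeR, and 0.041 and 0.03 with DESeq2. Ccl7, a monocyte attractant, had 0, 1 and 9 reads in SRC3, FRC1 and PAR, and Il7, a lymphocyte survival factor, had 3, 8 and 16 reads. Both had most of their reads in PAR. Il17d, an IL-17 family ligand, had 2 reads in SRC3, 15 in FRC1 and 4 in PAR. Without the filter, edgeR gave adjusted p = 0.023 for Ccl7 and 0.05 for Il7 in SRC3 against PAR, and 0.038 for Il17d in SRC3 against FRC1.

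The 9 tested genes that passed in no comparison were Ccl25, Il11ra1, Il12rb1, Il17rd, Il20rb, Il34, Lif, Tnfrsf25 and Tnfrsf4. Ccl25, a thymic and gut chemokine, averaged 7.55 ± 1.4 CPM in SRC3, 8.04 ± 1.8 CPM in FRC1 and 6.09 ± 0.4 CPM in PAR. In FRC1 against PAR it had an adjusted p of 0.077 with all libraries, 0.017 without FRC1 replicate 1 and 0.048 without the count filter. Its exons overlap those of Elavl1 on the opposite strand over 204 bases. Il17rd, an inhibitor of FGF signalling that also binds IL-17 receptors, averaged 2.07 ± 0.34 CPM in SRC3, 3.24 ± 1.2 CPM in FRC1 and 2.29 ± 0.44 CPM in PAR. Its SRC3 against FRC1 comparison gave an adjusted p of 0.071, 0.016 without FRC1 replicate 2 and 0.043 without the count filter.

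**Figure D4:**
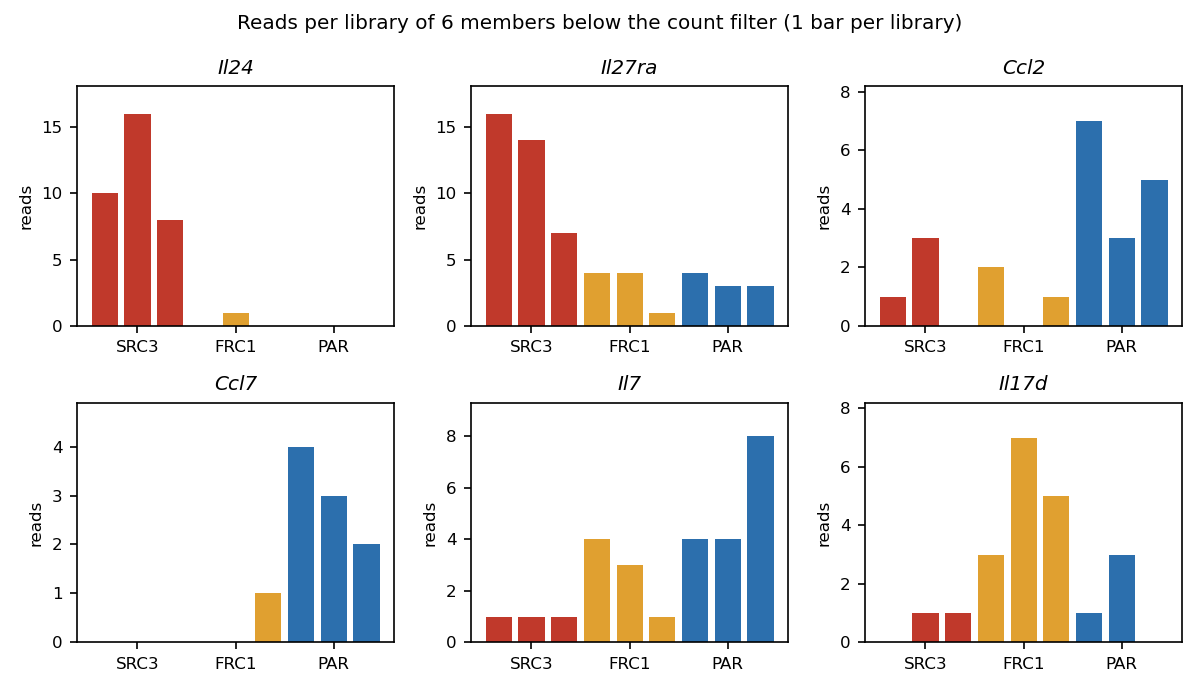
Reads per library of 6 genes below the count filter, 1 bar per library, in SRC3, FRC1 and PAR; a missing bar is a count of 0. Il24 has 8 to 16 reads in each SRC3 library and 1 read in all other libraries together.

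Pathway genes outside the symbol rule were followed through lists. Their counts are to be read against the shares of all tested genes. For SRC3 against PAR 17.8% were higher and 20.2% lower, for FRC1 against PAR 13.6% were higher and 14.7% lower, and for SRC3 against FRC1 15.5% were higher and 18% lower. Of 21 tested genes of gp130 and STAT3 signalling, 3 were higher and 9 lower in SRC3 against PAR, 4 higher and 3 lower in FRC1 against PAR, and 3 higher and 8 lower in SRC3 against FRC1. The FRC1 against PAR counts are near the all-gene shares. Cntfr, the receptor chain for ciliary neurotrophic factor, averaged 0.74 ± 0.57 CPM in SRC3, 3.53 ± 0.59 CPM in FRC1 and 3.96 ± 0.17 CPM in PAR. Clcf1, a gp130 family ligand, was higher in both reserve populations, at 73.6 ± 9.4 CPM in SRC3, 65.7 ± 7.7 CPM in FRC1 and 45.0 ± 5.3 CPM in PAR (adjusted p = 0.00049 and 0.0046 against PAR). Bcl3, a nuclear cofactor of NF-kB, was 3.62-fold lower in SRC3 than in PAR (adjusted p = 1.7e-07), and Stat3 was lower in SRC3 than in FRC1 by 0.68 on the log2 scale (adjusted p = 9.5e-07).

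Of 17 tested genes of NF-kB signalling, 2 were higher and 7 lower in SRC3 against PAR, 2 higher and 1 lower in FRC1 against PAR, and none higher and 8 lower in SRC3 against FRC1. Among all genes 20.2% were lower in SRC3 than in PAR and 18% lower in SRC3 than in FRC1. Tnfaip3, which encodes the feedback inhibitor A20, averaged 13.3 ± 2.4 CPM in SRC3, 23.8 ± 2.1 CPM in FRC1 and 19.3 ± 0.5 CPM in PAR. It fell by 0.54 in SRC3 against PAR (edgeR adjusted p = 0.00077) and by 0.84 against FRC1 (adjusted p = 4.9e-06) on the log2 scale. Its partner Tnip1 and the subunit gene Rel were also lower in SRC3, with log2 fold changes against PAR of -0.61 and -0.66 (adjusted p = 2.6e-05 and 0.0013).

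TNF superfamily genes outside the rule and TNF receptor adaptors numbered 16 tested, of which 3 were higher and 5 lower in SRC3 against PAR, 1 higher and 2 lower in FRC1 against PAR, and 2 higher and 6 lower in SRC3 against FRC1. Ngfr, the low-affinity neurotrophin receptor, had 19.4 ± 8.1 CPM in SRC3, 0.13 ± 0.22 CPM in FRC1 and 0.70 ± 0.14 CPM in PAR (log2 fold change 4.78 in SRC3 against PAR, SE 0.51, edgeR adjusted p = 0.00013). Its 774 reads in SRC3 stood against 5 in FRC1 and 29 in PAR. Traf1, an adaptor of TNF receptors, rose 2.88-fold in SRC3 against PAR (adjusted p = 1.2e-05). Eda2r and its ligand gene Eda, both of the ectodysplasin branch, were lower in SRC3 than in PAR by 2.76-fold and 2.16-fold (adjusted p = 4.8e-09 and 1.9e-06), and lower in FRC1 than in PAR by 1.96-fold and 1.37-fold (adjusted p = 3.0e-06 and 0.011).

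Of 14 tested adaptors and processing genes of the IL-1 and Toll-like receptor pathways, 1 was higher and 5 lower in SRC3 against PAR, 2 higher and 2 lower in FRC1 against PAR, and 2 higher and 2 lower in SRC3 against FRC1. Tlr4, the receptor for bacterial lipopolysaccharide, averaged 19.9 ± 3.4 CPM in SRC3, 14.02 ± 1.3 CPM in FRC1 and 26.8 ± 2.6 CPM in PAR and passed in every comparison. Irak4, a kinase at the start of the pathway, was 2.04-fold lower in SRC3 than in PAR (adjusted p = 0.00051). Sigirr, an inhibitory receptor of the family, was higher in SRC3 at 76.9 ± 0.2 CPM and in FRC1 at 68.8 ± 2.8 CPM, against 53.5 ± 1.4 CPM in PAR (adjusted p = 2.9e-07 and 7.8e-05).

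Among 5 tested chemokine genes outside the rule, 2 were higher and 1 lower in SRC3 against PAR, none higher and 1 lower in FRC1 against PAR, and 1 higher and none lower in SRC3 against FRC1. Cx3cl1, a membrane-bound chemokine, averaged 15.8 ± 0.7 CPM in SRC3, 8.63 ± 2.2 CPM in FRC1 and 10.4 ± 0.1 CPM in PAR and was 1.52-fold higher in SRC3 than in PAR (edgeR adjusted p = 0.001). Of 9 tested colony stimulating and interferon receptor genes and related ligands, 2 were higher and 2 lower in SRC3 against PAR, none higher and 2 lower in FRC1 against PAR, and 2 higher and 1 lower in SRC3 against FRC1. Kitl, the stem cell factor gene, averaged 48.6 ± 7.8 CPM in SRC3, 19.3 ± 2.5 CPM in FRC1 and 33.8 ± 3.3 CPM in PAR, and passed in every comparison. Tslp, an epithelial cytokine, averaged 1.98 ± 0.46 CPM in SRC3, 0.72 ± 0.13 CPM in FRC1 and 2.21 ± 0.29 CPM in PAR and was 3.02-fold lower in FRC1 than in PAR (adjusted p = 0.00046).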

How the data were processed

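The authors deposited whole-number read counts per gene, 1 file per library, not normalized. Libraries followed a stranded mRNA protocol read as single 50-cycle reads, per the labels' protocols. HISAT2 2.1.0, HTSeq 0.9.1, DESeq2 and build GRCm38 are named, per the submitters' processing notes. Not given in the sources used here are their settings and the strand option of the counting, so reads of genes with overlapping exons cannot be told apart. The 5 summary lines of each file (among them 5.923 to 7.917% of unique reads in no gene and 1.175 to 1.214% ambiguous) stayed out of every sum and test, and reads with several alignments had been tallied apart by the authors.

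Counts of all 9 libraries were fitted once with edgeR 4.0.16 in R 4.3.3: filterByExpr (minimum count 10, minimum total 15), TMM factors (0.9938 to 1.012), the group as the only term, robust quasi-likelihood tests, two-sided, 6 residual degrees of freedom, and Benjamini-Hochberg adjustment over all 12540 genes tested at 0.05. The common biological coefficient of variation was 0.0535. The SE of a log2 fold change is its size divided by the square root of F. CPM were scaled by TMM and divided by GENCODE M21 exon length for RPKM. All 153 genes and 47310 of 47729 in all were matched to that annotation by identifier. Counting intervals (95%) and the floor of 3 counts cover counting error only, since reads carry no molecular identifiers. No pair of replicates differed by as little as sampling noise (chi-square per degree of freedom 1.84 to 7.8).

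Groups come from the sample titles. Same-numbered libraries of different groups did not deviate together (correlations of -0.07 to 0.12 over 9 pairs, 1 of them over 0.1), so the numbers were not treated as pairs. The symbol rule itself used no measured value. The choice of this group of genes, the pathway lists and the naming rule were made with earlier results of these data known. The rule names genes that passed in at least 1 comparison with a mean of at least 1 CPM in some group, 14 genes with known roles in myoblasts, receptor or ligand partners of these, and up to 4 genes per list and comparison. Some genes of the lists are not reported here. Alternatives were RLE size factors, library sizes alone, no count filter, at least 5 CPM in 3 libraries, DESeq2 1.42.0, only the groups compared, a replicate block and leaving out each library. The script was also tested on simulated data.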

Additional observations from a re-analysis of the deposited data

How the results depend on the processing

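Of 996 values of called fold changes recomputed under the alternatives, 924 kept direction and call, 72 kept direction and lost the call, and 0 reversed. Calls of genes that an alternative left untested are not among the 996, such as 7 in SRC3 against PAR with at least 5 CPM in 3 libraries. The count of cytokine and receptor genes higher in FRC1 against PAR was 5, fell to 3 with DESeq2 and ranged from 2 (without FRC1 replicate 3) to 8 (without FRC1 replicate 1) when a library was left out. The count of all genes called in that comparison ranged from 2327 (without FRC1 replicate 3) to 3987, beside 3550 with all libraries. Leaving out a library gave 8 to 10 genes lower in FRC1 against PAR, 6 to 9 higher and 13 to 20 lower in SRC3 against PAR, and 8 to 12 higher and 12 to 13 lower in SRC3 against FRC1. With the replicate number as a block, the counts were 6 higher and 9 lower in FRC1 against PAR, 8 higher and 19 lower for SRC3 over PAR, and 10 higher and 13 lower for SRC3 over FRC1. The block added Tnfrsf21 (FRC1 against PAR, adjusted p = 0.049) and Il1rap (SRC3 against PAR, adjusted p = 0.049). DESeq2 gave 8 higher and 13 lower in SRC3 against PAR. The cause of these shifts was not tested. Depth limits the 53 genes with reads below the filter, of which 14 had 1 read in all.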
